A study of Mus musculus with 5 samples.

Results

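The cytosolic ribosomal protein genes of mouse haematopoietic stem cells are described here across 5 libraries. Members were the gene rows named Rpl or Rps followed by a number, with or without a trailing a, l or x, together with Rpsa, Rplp0, Rplp1 and Rplp2. Pseudogene (-ps) and Rps6k names were left out. The rule took 82 of 33894 named gene rows, of which 50 encode large subunit (Rpl) and 32 small subunit (Rps) proteins. The low count filter kept 79 of them, 47 large and 32 small, among 13696 tested genes. Bulk RNA was sequenced from stem cells sorted from bone marrow as Lin-, Sca1+, c-Kit high, CD34- and Flt3- cells of 8-week-old mice. The 3 libraries labelled dKO carry the Vav-cre transgene, which is active in blood cells, and floxed alleles of both Wnt co-receptor genes, written Lrp5 fl/fl Lrp6 fl/fl in the genotype. The other 2 libraries are labelled WT, and Cre is named for the dKO group only, so Cre itself and loss of the floxed genes cannot be told apart. The series title concerns the need for LRP5 and LRP6 in stem cell self-renewal and differentiation. Nothing in the labels says that each library came from a mouse of its own, so the spread behind each p-value is that between libraries and may be technical.

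The cytosolic ribosome is built from a small subunit, which decodes the mRNA, and a large subunit, which joins amino acids and threads the new chain through an exit tunnel. Its proteins are made in matched amounts, and most of their mRNAs begin with a run of pyrimidines, the 5′ terminal oligopyrimidine (TOP) tract, through which mTOR signalling controls their translation. Haematopoietic stem cells are known for a low rate of protein synthesis, and loss of 1 copy of several ribosomal protein genes causes Diamond-Blackfan anaemia in humans.

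The annotated starts of 62 members were found in RefSeq on GRCm38.p6, another build than the mm9 of the deposited values. In the 30 bases before and the 30 bases from the annotated start, read on the sense strand, a run of 8 or more consecutive C or T bases was present in 35 of 62 members (56.5%). The share was 60.5% of 38 large and 50% of 24 small subunit genes, and 25.8% of 27025 genes in the same table. For a gene with several annotated starts, the start with the longest run was used, in members and in all genes. The windows below belong to members whose fold changes are described in the results that follow, some with long and some with short runs, with the longest run in capitals after 8 bases of context.
Rpl35a, chr16:33056469-33056496, plus strand: ggggcttgCCTTCCTCTTTCCgccatct
Rpl19, chr11:98026905-98026932, plus strand: ggcttgggCTCTCCCCTTCgcagataat
Rpl31, chr1:39367825-39367852, plus strand: tcgccacaCCTCTTCCTCCTCgcctccc
Rpl27, chr11:101442230-101442257, plus strand: acgctctgTTCCTgtctgctgctcgtgc
Rps15, chr10:80292404-80292431, plus strand: gaggcgggCCCTCCCggcagagctcgcg
Rps27l, chr9:66946056-66946083, plus strand: cgcctccaCTCCTCTCCactcctccccg
Rpsa, chr9:120127778-120127805, plus strand: gccgcccgTCCTTTCgcgctacccgggg
Rps27, chr3:90213631-90213658, minus strand: cgctttcgCTCCTTTCCggcggtgacga
The runs of Rpl27, Rps15 and Rpsa are under 8 bases and those of the other 5 are longer. The runs of Rpl19, Rpl27, Rpl31, Rps15 and Rps27l lie wholly before the annotated start, and those of Rpl35a and Rps27 span it. The run of Rpsa lies after it. A run, counted within the window only, is a match of letters near an annotated start, and the first base of the mRNA in these cells was not measured.

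Library totals were 25216810, 16028512 and 26869348 gene counts for the dKO label and 26242672 and 28027458 in the WT libraries. Between 12894 and 16098 genes had a count, the fewest in dKO replicate 2. Lrp6 had 790, 260 and 767 counts in the libraries labelled dKO, against 660 and 232 in the WT libraries, and Lrp5 had 37, 2 and 71 against 7 and 32. Neither targeted gene had fewer counts throughout under the dKO label, and a count over a whole gene need not fall where floxed exons are removed. All 10 stem cell markers had counts, with a summed level of 1524 to 1642 CPM (counts scaled to library size) in the libraries labelled dKO, against 1231 and 771 CPM in WT. All 6 markers of granulocyte progenitors had counts too, at 12226, 15735 and 11066 CPM under the dKO label, against 6439 and 42171 CPM in WT. Markers of other blood cells were higher under the dKO label in some lists. Erythroid markers summed to 162 to 182 CPM, against 95.6 and 101 CPM in WT, and dendritic markers to 262 to 649 CPM, against 199 and 144 CPM in WT. Mast cell and basophil markers summed to 318 to 959 CPM, against 192 and 404 CPM in WT, and B cell markers to 114 to 293 CPM, against 145 and 103 CPM in WT. In these lists 2 of 7 erythroid, 3 of 4 dendritic, 4 of 5 mast cell and basophil and 4 of 6 tested B cell markers were higher at an unadjusted p under 0.05. By that rule 677 genes (4.94% of all tested) were higher. So were 3 of the 10 stem cell markers, and 1 of the 6 granulocyte progenitor markers was lower. T and NK cell markers summed to 562 to 687 CPM, against 705 and 1880 CPM in WT, with Cd3e at 0 in all 5 libraries. Nearly all of that sum was the single gene Nkg7, at 561, 676 and 671 CPM under the dKO label, against 704 and 1879 CPM in WT. Cd34 mRNA was present in these cells sorted as CD34-, at 945, 968 and 1085 CPM under the dKO label, against 1211 and 760 CPM in WT. Flt3 mRNA had 338, 300 and 359 CPM under the dKO label, against 238 and 116 CPM in WT. Of 10 listed genes for markers sorted against, all 7 tested had log2 fold changes above 0 (median 1.10). By edgeR 2 of them were higher at an unadjusted p under 0.05. The part of other cells in the values of the ribosomal protein genes was not tested. The scaling factors by which edgeR adjusts library totals (TMM) were 1.077, 1.033 and 1.005 for the libraries labelled dKO, against 1.004 and 0.891 for WT.

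Ribosomal protein genes were a large and uneven part of these transcriptomes. They took 4.83%, 3.86% and 4.74% of gene counts in the libraries labelled dKO, against 4.86% and 4.97% in the WT libraries. In bulk RNA, fewer cells of a type and less RNA per cell cannot be told apart. The large subunit took 2.76%, 2.27% and 2.65%, against 2.73% and 2.84% in WT. The small subunit took 2.07%, 1.59% and 2.09%, against 2.12% and 2.13% in WT. In both subunits dKO replicate 2 was the low library, and the other 4 lay close together. Every library labelled dKO lay below both WT libraries in the total and the small subunit share, and the large subunit shares overlapped. In TPM, which corrects for transcript length, the members held 10.2%, 8.32% and 9.60% in the libraries labelled dKO, against 9.91% and 9.82% in WT, so the groups overlapped. The log2 ratio of the mean shares of counts was -0.14, and -0.04 without dKO replicate 2.

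**Figure D1:**
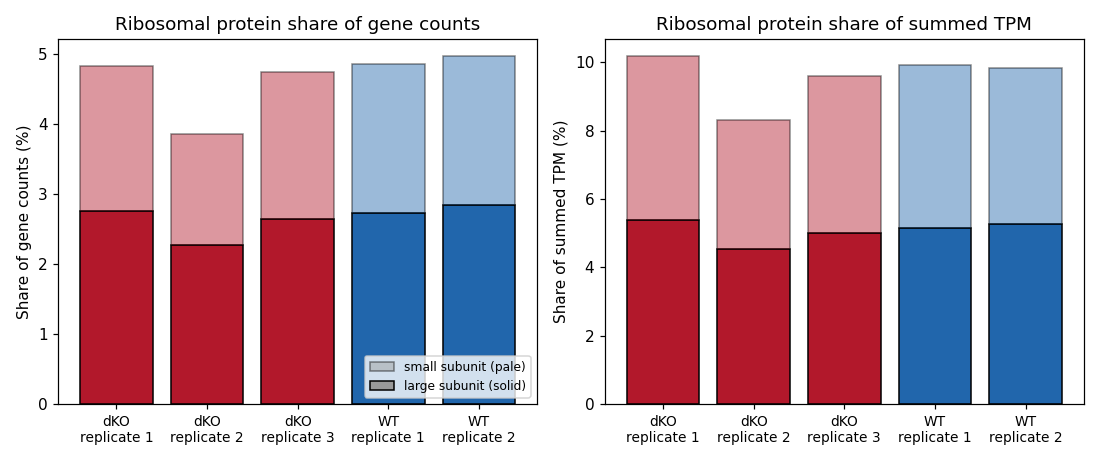
Share of each library's gene counts (left) and of its summed TPM (right) taken by large subunit (solid, lower) and small subunit (pale, upper) ribosomal protein genes, in percent, with 1 bar per library and dKO in red, WT in blue. dKO replicate 2 has the lowest bar in both, at 3.86% of counts and 8.32% of TPM, and the other 4 libraries lie between 4.74% and 4.97% of counts.

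Levels differed widely between members. Mean TPM over the 5 libraries ran from 39.7 for Rpl29 to 4517 for Rps27, with a median of 802 for the large and 1204 for the small subunit, and 39 of 79 members averaged at least 1000 TPM. Rps27, a zinc finger protein of the small subunit, had 5739, 4024 and 5174 TPM in the libraries labelled dKO, against 4305 and 3346 TPM in WT. Rpl13, a large subunit protein, had 4865, 3970 and 3770 TPM, against 3777 and 3836 TPM in WT. Their group ranges overlapped. Rpl32, also of the large subunit, had 4363, 3219 and 3984 TPM in the libraries labelled dKO, against 3382 and 3166 TPM in WT. Rps14, which lies on the small subunit platform, had 3658, 3148 and 3845 TPM, against 3816 and 3446 TPM in WT. In both genes the groups overlapped as well. Above Rpl29 (39.7), the lowest mean levels were those of Rpl22 at 88.1 and Rps15a at 111 TPM. That order is one of TPM only. Rps15a had 6509, 2514 and 6503 counts in the libraries labelled dKO, against 5481 and 6588 in WT. Rpl22 had fewer in every library, at 2904, 1991 and 2963, against 2934 and 3364 in WT. Rpl29 and Rps15a were named after their values were seen.

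**Figure D2:**
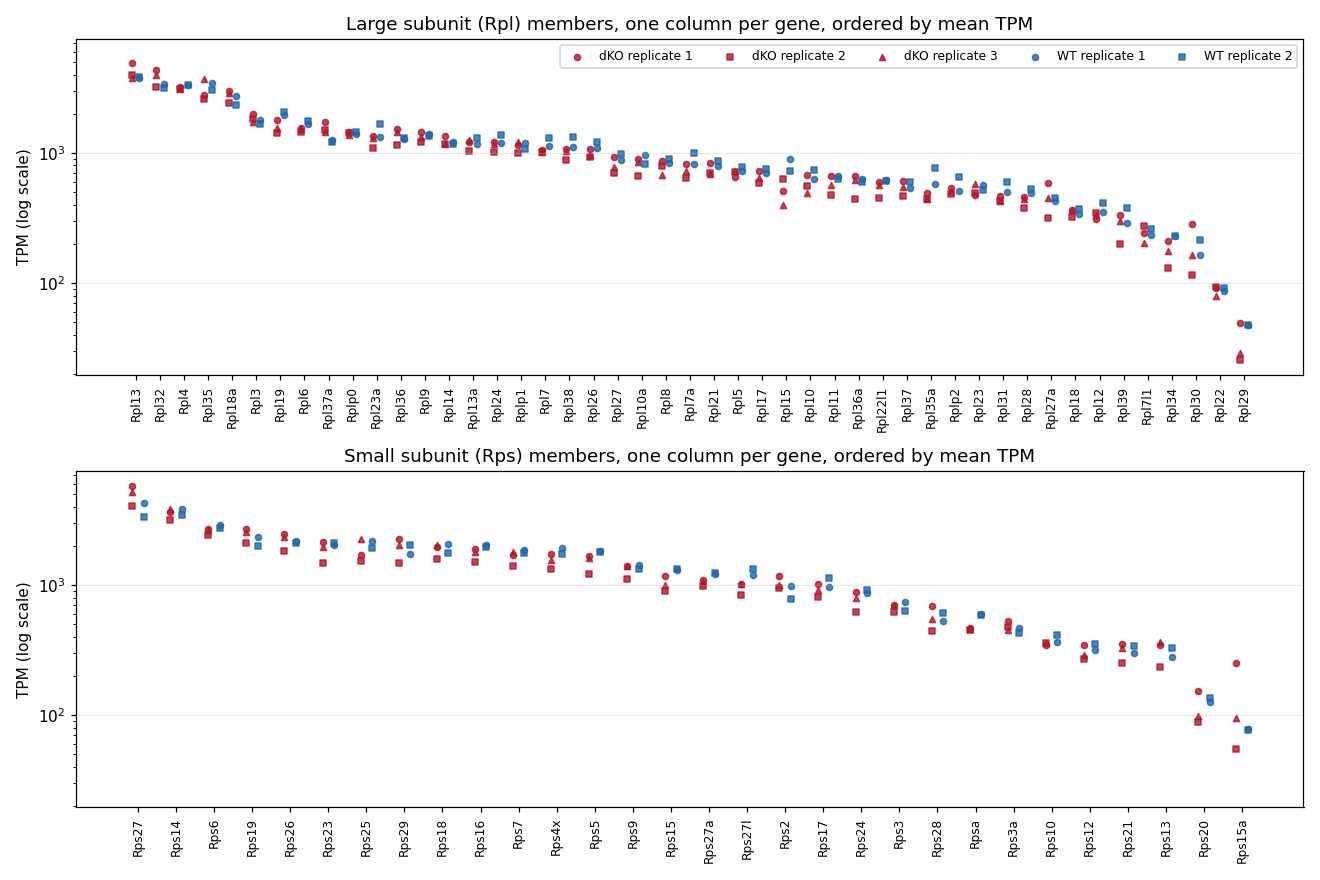
TPM (log scale) of 77 tested members in each library, dKO in red left of WT in blue within each column, with the large subunit above and the small subunit below and genes ordered by mean TPM. Levels run from 39.7 (Rpl29) to 4517 (Rps27) mean TPM, and Rps15a has 1 library, dKO replicate 1, far above its other 4.

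Of the 50 large subunit rows, 3 did not pass the low count filter, each a paralog of a broadly expressed gene. Rpl10l, the copy of X-linked Rpl10 used in male germ cells, had 0 counts in every library, which allows up to 0.119, 0.187 and 0.112 CPM where dKO is the label and 0.114 and 0.107 CPM in WT (3 counts per library, counting error only). Rpl39l, the testis-enriched copy of Rpl39, was at 0 except for 21 counts in dKO replicate 3. Rpl3l, the striated muscle copy of Rpl3, had 6 counts in dKO replicate 1, 3 in WT replicate 2 and 0 elsewhere. Their counterparts passed the filter. Rpl3, near the peptidyl transferase centre, had 1974, 1835 and 1728 TPM in the libraries labelled dKO, against 1789 and 1660 TPM in WT. Rpl10, which joins the large subunit late in its maturation, had 678, 561 and 491 TPM, against 629 and 733 TPM in WT. Rpl39, a short protein lining the exit tunnel, had 333, 198 and 298 TPM, against 290 and 375 TPM in WT. All 3 of these overlapped between groups.

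Set against WT, nearly all members had a negative fold change, of small size, and none passed the test. By the quasi-likelihood test of edgeR, with p-values adjusted by Benjamini-Hochberg, the calls were 0 of 13696 genes higher and 0 lower (0% each at adjusted p under 0.05), and the smallest adjusted p of a member was 0.430. Fold changes were below 0 for 45 of 47 large subunit members, with a median log2 value of -0.35, and for 31 of 32 small subunit members, with a median of -0.33. Over all tested genes 47.8% were below 0 and the median was 0.04. The 95% interval included 0 for 42 large and 27 small subunit members. The other 10, or 5 of each subunit, were lower at an unadjusted p under 0.05 and 0 were higher, where 711 genes (5.19% of all tested) were lower and 677 (4.94%) higher by that rule. Among the 7582 tested genes within the members' range of CPM, 8.64% were lower. This range is wide, holding 7582 of 13696 tested genes, so these genes are not matched to the members in level. The count of 10 was 1 without WT replicate 2, 4 without dKO replicate 2, 6 without dKO replicate 1 and 22 without WT replicate 1. With DESeq2 the calls were 223 higher and 113 lower (1.24% and 0.629% of 17952 genes), among them 1 member. At an unadjusted p under 0.05 DESeq2 had 12 members lower and 0 higher, where 4.56% of all genes were lower and 6.47% higher. On TPM, limma called 3 genes higher and 2 lower (0.0232% and 0.0154%), none of them members. At an unadjusted p under 0.05 it had 3 members lower and 0 higher, where 2.6% of all genes were lower and 6.9% higher.

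**Figure D3:**
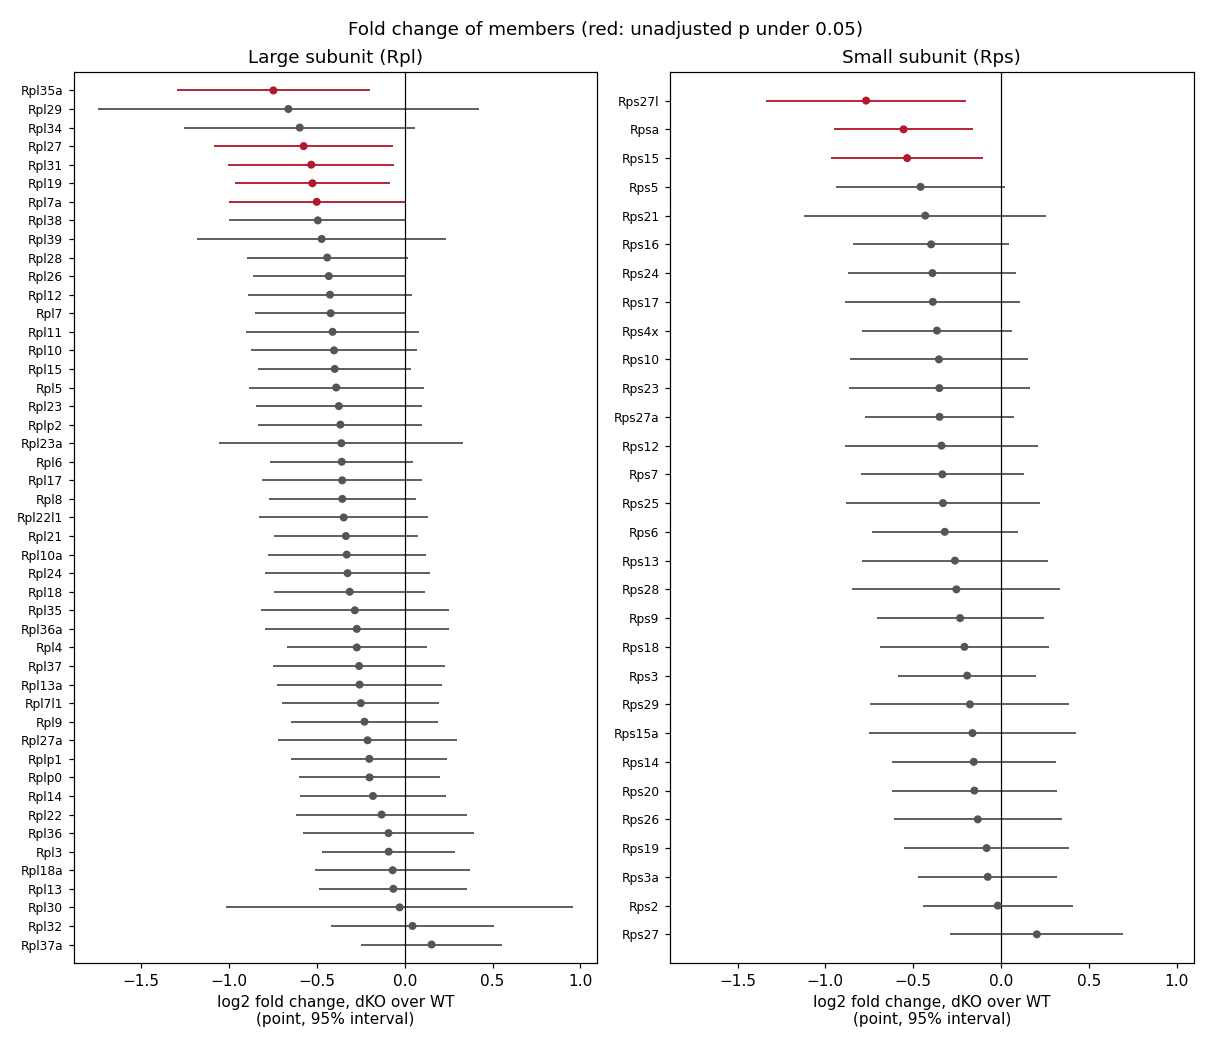
log2 fold change of dKO over WT (point) with its 95% interval (line) from edgeR for 47 large (left) and 30 small (right) subunit members, 2 small subunit members not being shown because their single values are not reported here, red where the unadjusted p was under 0.05. 45 large and 29 small subunit points lie left of 0, and 8 of the intervals shown do not reach it.

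The members' levels differed most in 2 libraries. For each member, the log2 CPM was set against its mean over the 5 libraries. The median of these levels over the large subunit was -0.04, -0.33 and -0.03 in the libraries labelled dKO, against 0.06 and 0.33 in WT. Over the small subunit it was -0.03, -0.40 and 0.03, against 0.07 and 0.32 in WT. In CPM dKO replicate 2 was the lowest of the 5 libraries for 73 of 79 members (55 in TPM) and WT replicate 2 the highest for 67 (31 in TPM). Both were picked after this was seen, and leaving out the lowest dKO and the highest WT library brings the values nearer 0 by construction. Without both, the median log2 fold change was -0.09 for the large and -0.05 for the small subunit, with 36 of 48 and 20 of 32 members below 0, and -0.16 and -0.12 relative to the median of all genes in that fit. Without WT replicate 2 alone the medians were -0.18 and -0.18, and without dKO replicate 2 alone -0.26 and -0.20. WT replicate 2 is also the library with the highest summed granulocyte progenitor markers, at 42171 CPM, and the lowest TMM factor, and dKO replicate 2 the one with the fewest counts. Their part in the result was not tested.

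The values were also set out library by library, first in log2 CPM. dKO replicate 2 lay below WT replicate 2 in 79 of 79 members, with a median log2 difference of -0.69 (all genes -0.09), and below WT replicate 1 in 76, with a median of -0.41 (all genes -0.10). dKO replicate 1 lay below WT replicate 2 in 73 members (median -0.38, all genes 0.08) and below WT replicate 1 in 59 (median -0.09, all genes 0.02). dKO replicate 3 lay below WT replicate 2 in 69 members (median -0.31, all genes 0.03) and below WT replicate 1 in 48 (median -0.04, all genes 0). In TPM dKO replicate 1 lay below WT replicate 1 in 37 members (median 0.04, all genes 0.14). It lay below WT replicate 2 in 47 (median -0.04, all genes 0.35). In TPM dKO replicate 2 lay below WT replicates 1 and 2 in 72 and 67 members, and dKO replicate 3 in 53 and 54. These 6 pairs share libraries and are not independent.

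**Figure D4:**
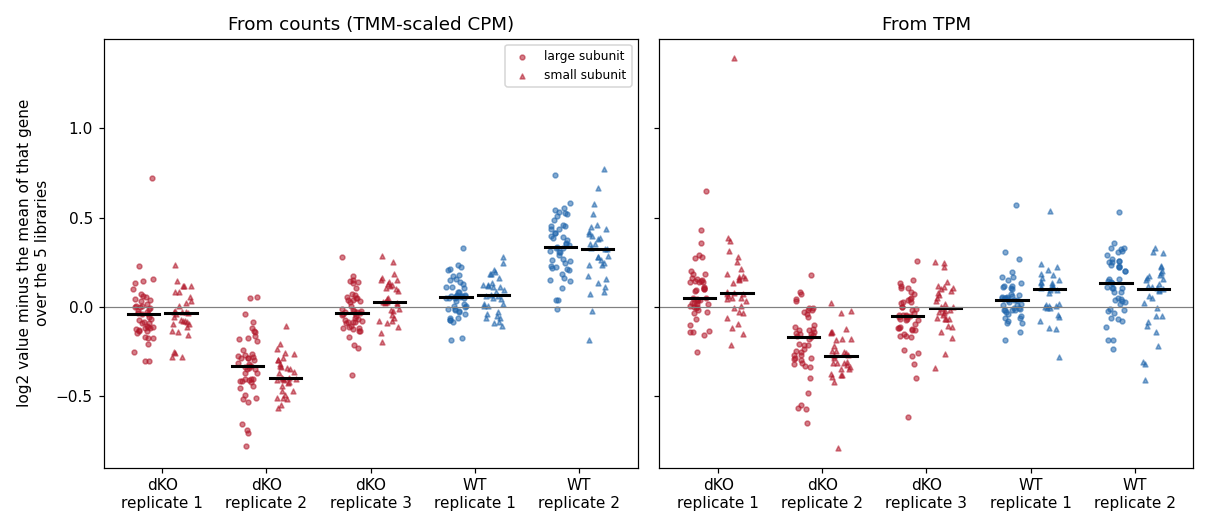
log2 CPM (left) and log2 TPM (right) of each tested member minus its mean over the 5 libraries, by library, dKO in red and WT in blue, with circles for the large and triangles for the small subunit and black bars at the medians. In CPM dKO replicate 2 sits lowest, with medians of -0.33 and -0.40, and WT replicate 2 highest, with 0.33 and 0.32, while the other 3 libraries lie near 0.

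Both subunits shared one pattern over the libraries. The median large subunit level minus the median small subunit level was -0.01, 0.07 and -0.06 on the log2 CPM scale in the libraries labelled dKO, against -0.01 and 0.01 in WT. The WT values lay inside the range of the libraries labelled dKO, and the group means differed by -0.002. The median SD of log2 CPM within groups was 0.216 for members, 0.335 for tested genes within the members' range of CPM and 0.514 for all tested genes. Other translation genes had medians as low, 0.171 for initiation factors and 0.140 for elongation factors.

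In CPM, every library labelled dKO lay below every WT library in 28 of 47 large and 16 of 32 small subunit members, where this held for 15.6% of all tested genes and 21.5% of those within the members' range of CPM. The reverse held for 0 members, against 13.7% of all genes. In TPM it was 14 large and 11 small subunit members that lay below, against 8.81% of all genes, and 1 member, Rpl37a, that lay above, against 18.6%. TPM shifted all genes: the median log2 fold change of all tested genes was 0.15 in TPM, where the large and small subunit medians were -0.15 and -0.14 with 40 of 47 and 24 of 32 members below 0. Relative to that shift the medians were -0.31 and -0.30 in TPM, and relative to all genes in the counts -0.39 and -0.37. Scaling by library totals alone, chosen after seeing the data, moved the median of all genes to 0.17 and gave medians of -0.21 and -0.20. The sign of both subunit medians was negative under every scaling tried.

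Among small subunit members Rpsa, the laminin receptor precursor that sits at the back of the small subunit head, had 458, 446 and 506 CPM in the libraries labelled dKO, against 648 and 732 CPM in WT. The groups did not overlap in CPM or in TPM, where Rpsa had 470, 450 and 464 against 602 and 587 in WT. Its log2 fold change was -0.55 (95% interval -0.95 to -0.16, unadjusted p = 0.012, edgeR adjusted p = 0.436). Rps27l, a paralog of Rps27 known as a p53 target, had 275, 221 and 310 CPM in the libraries labelled dKO, against 357 and 558 CPM in WT. Its log2 fold change was -0.77 (95% interval -1.34 to -0.20, unadjusted p = 0.014), and -0.41 without WT replicate 2. Rps15, named after its values were seen, had -0.53 on the same scale.

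In the large subunit Rpl35a, whose human gene is mutated in Diamond-Blackfan anaemia, had 147, 121 and 151 CPM in the libraries labelled dKO, against 186 and 283 CPM in WT. The groups did not overlap, and WT replicate 2 was well above the rest. Its log2 fold change was -0.75 (95% interval -1.30 to -0.20, unadjusted p = 0.014, edgeR adjusted p = 0.436). Rpl19, which takes part in a bridge between the subunits, had 705, 558 and 681 CPM, against 842 and 1024 CPM in WT, with a log2 fold change of -0.53. Rpl27, another Diamond-Blackfan gene in humans, had 325, 247 and 350 CPM, against 396 and 520 CPM in WT, with a log2 fold change of -0.58. Neither overlapped between groups in CPM. In TPM Rpl27 did, at 933, 695 and 777 in the libraries labelled dKO, against 885 and 973 in WT (log2 fold change -0.22). Rpl31, at the rim of the exit tunnel, and Rpl7a, named after its values were seen, completed the 5 of the large subunit, at -0.53 and -0.50. Without WT replicate 2 the values were -0.42 for Rpl35a, -0.37 for Rpl27, -0.27 for Rpl31 and -0.25 for Rpl7a.

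A few members ran the other way, none past the test. Rps27 had 1045, 738 and 1055 CPM in the libraries labelled dKO, against 863 and 779 CPM in WT, and its groups overlapped. The log2 fold change was 0.20 (95% interval -0.29 to 0.70, unadjusted p = 0.37). Rpl37a, a zinc-binding large subunit protein, had 529, 461 and 497 CPM, against 420 and 472 CPM in WT, with a log2 fold change of 0.15 (95% interval -0.25 to 0.55). In TPM its groups separated, at 1733, 1503 and 1457 in the libraries labelled dKO, against 1246 and 1205 in WT (limma on log2(TPM + 1), unadjusted p = 0.075). Rpl32 had a log2 fold change of 0.04 from 1180, 875 and 1205 CPM, against 1012 and 1095 CPM in WT.

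Sorted by place in the ribosome, the members had like medians. In the stalk, which recruits the elongation GTPases, 4 of 4 genes had negative values with a median of -0.28. Its base protein Rplp0 had 1065, 1034 and 1122 CPM in the libraries labelled dKO, against 1116 and 1352 CPM in WT (log2 fold change -0.20). The acidic proteins that dimerise on it were Rplp1, with 299, 259 and 349 CPM against 343 and 352 CPM in WT (-0.20), and Rplp2, with 223, 198 and 215 CPM against 231 and 315 CPM in WT (-0.37, and -0.13 without WT replicate 2). In CPM Rplp0 and Rplp1 overlapped between groups and Rplp2 did not. The 5S particle proteins Rpl5 and Rpl11, which bind Mdm2 when ribosome assembly is disturbed, had log2 fold changes of -0.39 (-0.23 without WT replicate 2) and -0.41 (-0.25 without dKO replicate 2). All 9 exit tunnel genes had negative values (median -0.36), 2 of them at an unadjusted p under 0.05. Of 19 genes mutated in human Diamond-Blackfan anaemia 18 had negative values (median -0.35), 3 at an unadjusted p under 0.05, and the exception was Rps27. The 4 X-linked members had a median of -0.38, with Rps4x, the X-linked form of a small subunit protein, at -0.36. Beside these, 96.2% of all 79 members were below 0, with a median of -0.34, and 10 (12.7%) were lower at an unadjusted p under 0.05. By that rule 5.19% of all tested genes were lower.

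Some ribosomal protein paralogs can replace one another in the ribosome, and the ratio of each paralog to its counterpart was compared per library in TPM. Whether the pairs below do so in these cells was not measured. Rps27l over Rps27 had log2 ratios of -2.48, -2.26 and -2.33 in the libraries labelled dKO, against -1.84 and -1.33 in WT. The ratio was lower in every library labelled dKO, by -0.77 between the means (exact permutation test, two-sided p = 0.2, the smallest that 3 against 2 libraries allow, and 0.6 adjusted over the 3 pairs). Leaving out WT replicate 2 gave a difference of -0.51, and leaving out WT replicate 1 gave -1.03. Rpl22l1 over Rpl22, an RNA-binding protein needed in lymphocyte development, had 2.71, 2.26 and 2.82, against 2.82 and 2.72 in WT (exact permutation p = 0.6). Rpl22l1 was the higher of that pair in all 5 libraries. Rpl7l1 over Rpl7, an outer large subunit protein, had -2.12, -1.90 and -2.31, against -2.27 and -2.33 in WT (exact permutation p = 0.4). These 2 ratios overlapped between groups. In CPM, Rpl22 had 107, 120 and 110 in the libraries labelled dKO, against 111 and 135 in WT, and Rpl7 had 782, 599 and 750, against 921 and 982 in WT.

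Counts and TPM ranked the members' fold changes alike, with Pearson's r of 0.87 and Spearman's rho of 0.90 across 79 genes of the same libraries, which are not independent replicates. The values themselves were shifted, with 64 members below 0 in TPM and 76 in counts, and medians nearer 0 in TPM as given above. The members farthest from that shift were named after their values were seen. Rps15a, a small subunit protein, had 240, 152 and 241 CPM in the libraries labelled dKO, against 208 and 264 CPM in WT, a flat pattern with overlapping groups. In TPM it had 251, 55.3 and 95.5, against 78.8 and 76.6 in WT, so dKO replicate 1 alone was high. Rpl15, whose human gene is mutated in Diamond-Blackfan anaemia, had 619, 463 and 582 CPM, against 721 and 742 CPM in WT, and 508, 626 and 395 TPM, against 902 and 721 TPM in WT. Its log2 fold change was -0.40 in counts and -0.69 in TPM. CPM were scaled by TMM and TPM were not, so the CPM per TPM of a member differs by library. Its highest value over its lowest had a median of 1.28 over the members. This was over 1.5 in 9 of 79 members, 3.60 in Rps15a and 1.99 in Rpl15. The median CPM per TPM over libraries was 0.0355 for Rpl23a, an exit tunnel protein, against a median of 0.483 over the members.

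**Figure D5:**
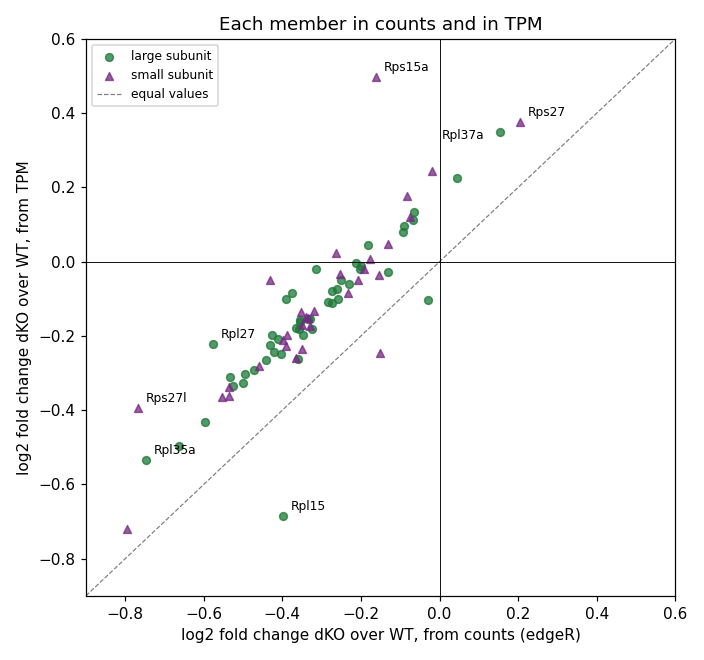
log2 fold change of dKO over WT from counts (x axis, edgeR) and from log2(TPM + 1) (y axis) for the 79 tested members, circles large and triangles small subunit, dashed line at equal values. Most points lie above the line (median -0.35 and -0.33 in counts, -0.15 and -0.14 in TPM for the large and small subunit), with Rps15a far above it and Rpl15 below it.

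Near-identical pseudogenes make several members uncertain, since the counting could split reads between copies. The 163 rows named -ps held counts equal to 0.880% to 1.07% of the members' counts. Rows matched by sequence, at 90% identity or more over 50% or more of their length, numbered 589 and held 4.62%, 4.999% and 4.74% of the members' counts in the libraries labelled dKO, against 4.77% and 4.66% in WT. Set against the parent's own counts, matched rows held 262% of the counts of Rps3a itself, 198% for Rpl34 and 141% for Rpl29. They held 72.6% for Rplp0, 45.9% for Rpl30, 27.0% for Rps13 and 23.0% for Rpl15. Gm8730, 98.7% identical to Rplp0, had 21003, 11954 and 22100 counts in the libraries labelled dKO, against 21467 and 24592 in WT. Adding matched rows to their parents left the subunit medians at -0.34 and -0.33. For Rpl30 the share was 14.9%, 61.9% and 57.3% in the libraries labelled dKO, against 66.7% and 60.7% in WT. The levels and log2 fold changes of Rps3a (-0.08), Rpl34 (-0.60), Rpl29 (-0.66), Rplp0 (-0.20), Rpl30 (-0.03) and Rpl15 (-0.40), proteins of the small (Rps3a) and large subunit, are uncertain for this reason. Those of Rps13, of the small subunit, are uncertain in the same way.

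Fold changes were set against length, GC content and level. Pearson's r across the 79 members was 0.05 with transcript length, -0.03 with GC content and 0.38 with mean TPM. Members with a pyrimidine run of 8 or more had a median log2 fold change of -0.34 (34 genes) and those without one -0.27 (25 genes). Removing a length and GC trend fitted over all genes left medians of -0.22 for the large and -0.15 for the small subunit.

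Other genes of the translation apparatus were counted in the same way, beside the 47.8% of all tested genes below 0, and none was called by edgeR. The 4 ribosomal proteins with names outside the rule were all below 0. Rpl36al, the autosomal copy of Rpl36a, had 169, 155 and 176 CPM in the libraries labelled dKO, against 198 and 299 CPM in WT (log2 fold change -0.57). Gnb2l1 (Rack1), a signalling scaffold on the small subunit, had 530, 519 and 604 CPM, against 660 and 893 CPM in WT (-0.50). Without WT replicate 2 these 2 values were -0.25 and -0.27. Fau, which encodes Rps30, had -0.09 and overlapped between groups. Among mitochondrial ribosomal proteins 72 of 75 were below 0, with a median of -0.57. By edgeR 32 were lower and 0 higher at an unadjusted p under 0.05, where 5.19% of all tested genes were lower. Their median log2 CPM level per library was -0.20, -0.36 and -0.07 under the dKO label, against 0.19 and 0.49 in WT.

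Ribosome assembly factors had the lowest median of the translation lists, -0.64, with 31 of 32 below 0. At an unadjusted p under 0.05, 19 were lower, where 5.19% of all tested genes were. Their median log2 CPM level per library was -0.17, -0.33 and -0.19 under the dKO label, against 0.18 and 0.53 in WT. Npm1, a nucleolar chaperone, had 672, 495 and 701 CPM in the libraries labelled dKO, against 978 and 1417 CPM in WT (log2 fold change -0.94). Nhp2, of the box H/ACA pseudouridylation particle, had 190, 232 and 242 CPM, against 332 and 484 CPM in WT (-0.88). Fbl, the rRNA methyltransferase fibrillarin, had 111, 85.1 and 98.6 CPM, against 170 and 179 CPM in WT (-0.83). None of the 3 overlapped between groups, which follows largely from their being picked from the list by small p. In CPM every library labelled dKO lay below every WT library in 23 of 32 assembly factors, against 15.6% of all tested genes. With 1 library left out, the values nearest 0 were -0.66 for Npm1, -0.59 for Nhp2 and -0.72 for Fbl. In the RNA polymerase I list 10 of 14 were below 0 (median -0.09), 2 of them at an unadjusted p under 0.05, Polr1d, a subunit shared with polymerase III, at -0.64 and Cd3eap, a subunit of the enzyme, at -1.02.

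Of 35 initiation factors 29 were below 0 (median -0.45). At an unadjusted p under 0.05, 14 were lower and 1 higher, where 5.19% and 4.94% of all tested genes were. Their median log2 CPM level per library was -0.21, -0.20 and -0.12 under the dKO label, against 0.12 and 0.39 in WT. Eif2s1, the alpha subunit of eIF2, had 293, 255 and 288 CPM in the libraries labelled dKO, against 467 and 624 CPM in WT (log2 fold change -0.97). Eif4e, the cap-binding protein, had 224, 249 and 261 CPM, against 388 and 407 CPM in WT (-0.70), and Eif3g, an eIF3 subunit, 299, 311 and 328 CPM, against 455 and 579 CPM (-0.73). In all 3 the groups were apart, which follows largely from their being picked from the list by small p. In CPM every library labelled dKO lay below every WT library in 24 of the 35, against 15.6% of all tested genes. The reverse held for 2, against 13.7%. With 1 library left out, the values nearest 0 were -0.75 for Eif2s1, -0.64 for Eif4e and -0.55 for Eif3g. Of 8 elongation genes 5 were below 0 (median -0.38), 3 at an unadjusted p under 0.05: Eef1d and Eef1g, subunits of the exchange complex of eEF1A, at -0.80 and -0.50, and Eef1e1, a cofactor of the tRNA synthetase complex, at -0.61. Without WT replicate 2 Eef1d was at -0.54 and Eef1e1 at -0.39. Other TOP mRNAs had 11 of 14 below 0 (median -0.31), 5 at an unadjusted p under 0.05. Among them were Nap1l1, a histone chaperone, at -0.73 and Hnrnpa1, a splicing regulator, at -0.82. With 1 library left out, their values nearest 0 were -0.60 and -0.57. This list shares Npm1 with the assembly factors and several genes with the initiation factors, so these lists are not independent.

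Genes that control TOP mRNAs had 14 of 20 fold changes above 0 and a median of 0.46. Their median log2 CPM level per library was 0.004, 0.38 and -0.16 under the dKO label, against -0.08 and -0.16 in WT. Only dKO replicate 2 stood well apart, and the median SD within groups was 0.49. The list mixes activators, such as Mtor, with repressors, such as Eif4ebp1, so its median has no single meaning. At an unadjusted p under 0.05, 2 were higher and 1 lower, where 4.94% and 5.19% of all genes were. Tia1, an RNA-binding protein that holds TOP mRNAs untranslated under stress, had 183, 173 and 157 CPM in the libraries labelled dKO, against 107 and 74.0 CPM in WT (log2 fold change 0.92). Tial1, its relative, had 51.6, 73.5 and 62.4 CPM, against 42.1 and 33.1 CPM in WT (0.74). Eif4ebp1, a repressor of Eif4e that mTOR switches off, had 124, 120 and 129 CPM, against 191 and 217 CPM in WT (-0.71). The groups were apart in all 3, which follows largely from their being picked from the list by small p. Of the 20 genes, 2 lay above WT and 3 below in every library labelled dKO, against 13.7% and 15.6% of all tested genes.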

How the data were processed

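RNA from 6K sorted cells per sample was made into Smart-seq2 libraries, per the labels' protocols. The authors deposited raw counts per gene and, in separate files, TPM scaled to library size and length. Per the submitters' processing notes, the build was mm9 and the tools were TopHat2 2.1.1, RSEM 1.2.31, HTSeq, DESeq2, Trimmomatic and FastQC 0.11.5. Which of them made which values, and whether strand was used, is not stated there. In each file 30 rows named no gene (0.216% to 0.269% of counts) and were left out.

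Counts of all 5 libraries entered 1 fit in edgeR 4.0.16 under R 4.3.3 (TMM, filterByExpr, robust quasi-likelihood fit, no covariate), adjusted over 13696 genes. CPM are TMM-scaled, and log2 CPM use a prior count of 2. TPM were tested with limma 3.58.1 on log2(TPM + 1), which understates changes of low genes. Alternatives were DESeq2 1.42.0, limma-voom, other scalings and filters, a pseudocount of 0.1, added pseudogene counts, a length and GC trend (mgcv 1.9.3), the replicate number as a block and libraries left out. No pair of libraries of a group agreed within sampling noise (chi-square per degree of freedom 86.4 to 142), which does not show that they are independent.

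Pseudogene sequences and gene lengths came from GENCODE M21 on GRCm38, starts from RefSeq. Named genes are Rpsa and Rplp0 to Rplp2, per subunit the 3 smallest p, up to 2 of opposite sign and the 2 highest mean TPM, the paralog pairs, and up to 3 genes per list by p, except a few that are not reported here. The members and lists were chosen with earlier results of these data known. Read counts have no molecular identifiers, so floors cover counting error only.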

Additional observations from a re-analysis of the deposited data

How the results depend on the processing

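Both subunit medians were below 0 under every alternative, and their size depended on the libraries. edgeR called 0 of all genes, DESeq2 336, edgeR without a filter 8, limma on TPM 5 and 2 (pseudocounts 1 and 0.1), and edgeR without dKO replicate 2 and WT replicate 2 called 1. With 1 library left out the calls were 0 to 5. Members at an unadjusted p under 0.05 numbered 10. They were 3 with either TPM pseudocount, 4 on TPM without a filter, 4 with library totals alone, 1 scaled to the member total and 1 without both libraries. With 1 left out they ranged from 1 (without WT replicate 2) to 22 (without WT replicate 1), with 4 without dKO replicate 2 and 6 without dKO replicate 1. The large subunit median was -0.15 under each of the 3 TPM settings. Scaled to the member total, which moved the median of all genes to 0.31, the medians were -0.069 (large) and -0.061 (small). Over the fits that left out libraries the medians ran from -0.46 to -0.093 (large) and from -0.43 to -0.051 (small), both ends nearest 0 being those without dKO replicate 2 and WT replicate 2. A lone WT library takes its spread from the libraries labelled dKO. Share differences ran from -0.20 to -0.039 on the log2 scale, and large minus small differences from -0.044 to 0.034. dKO and WT samples of the same replicate number share only the number (correlations of deviations between -0.046 and 0.046), and the replicate block gave 1 call, medians of -0.40 and -0.38, and 7 members at an unadjusted p under 0.05.

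Some single genes changed sign. Scaling to the member total and library totals alone shift all genes upward (all-gene medians of 0.31 and 0.17, against 0.04), so genes just below 0 change sign there by construction. For the other settings the cause was not tested. Under all 3 TPM settings Rpl13 was 0.13, Rpl3 0.097, Fau 0.10, Rps15a 0.50 and Rps3a 0.12. With library totals alone Rpl13 was 0.077, Rpl22 0.0078, Rpl3 0.044, Fau 0.048, Rpl30 0.13 and Rps3a 0.060. Scaled to the member total Rpl13 was 0.22, Rpl22 0.17, Rpl3 0.19, Rpl7l1 0.055, Rplp0 0.085, Rplp1 0.063, Rps14 0.11, Fau 0.18, Rpl30 0.23, Rpl4 0.0087, Rps15a 0.10 and Rps3a 0.20. With the length and GC trend removed Rpl3 was 0.079, Rpl30 0.16, Rps15a 0.049 and Rps3a 0.14. With the replicate block as well, Rpl22 was 0.0035, Rpl3 0.078, Rpl30 0.12 and Rps3a 0.16, and with the block alone Rpl32 was -0.051. Over the fits that left out libraries Rpl13 ran from -0.18 to 0.10, Rpl22 from -0.27 to 0.0065, Rpl32 from -0.033 to 0.24, Rpl39 from -0.74 to 0.050, Rps14 from -0.29 to 0.00069, Fau from -0.26 to 0.19, Rpl23a from -0.62 to 0.021, Rpl30 from -0.51 to 0.55, Rps15a from -0.33 to 0.21 and Rps3a from -0.12 to 0.00090.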
